A study of Mus musculus with 4 samples.

Results

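The cells described are the group 2 innate lymphoid cells (ILC2) of the inflamed mouse esophagus, picked cell by cell from single-cell RNA counts of sorted CD45+ (immune) cells. A cell was taken when it held at least 1 UMI (a unique molecular identifier, which stands for 1 captured transcript) of 3 or more of the 7 genes Gata3, Il7r, Il17rb, Hs3st1, Klrg1, Il1rl1 and Rora. It also had to hold 0 UMIs of Cd3e, Cd3d, Cd3g, Cd79a and Cpa3 and fewer than 5 UMIs of Lyz2. This gate took 173 of the 6054 deposited cells (2.86%), of which 38 came from Il20rb knock-out (KO) animals and 135 from wild-type (WT) animals. The KO animals, numbered 1 to 5 by hashtag, gave 9, 12, 7, 3 and 7 gated cells, and the WT animals, numbered likewise, gave 21, 12, 47, 23 and 32. These numbers are names and pair no animals.

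The series compares 5 Il20rb KO mice with 5 WT mice. IL20RB is a receptor chain through which IL-19, IL-20 and IL-24 all signal. Mice of both genotypes carried the same model of eosinophilic esophagitis: MC903 (1 nmol) and ovalbumin (5 mg/mL) on the ears each day for 14 days, then ovalbumin at 1.5 g/l in the drinking water for 4 days and 50 mg by gavage on days 15 and 17, with esophagi taken on day 18. Unchallenged animals are not among the samples used here. Cells of each animal carried their own hashtag, were pooled, sorted and loaded in 2 wells, so animals are the replicates and every animal is present in both wells.

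ILC2 are tissue lymphocytes that lack rearranged antigen receptors and depend on the transcription factors GATA3 and RORα. They respond to the epithelial signals IL-33 (through the Il1rl1 product ST2), IL-25 (through Il17rb) and TSLP, and to IL-7. They are known as early sources of IL-5, which sustains eosinophils, and IL-13, which acts on epithelium.

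Promoter stretches of 3 genes are shown because GATA3 defines these cells and its family binds short GATA words; Ctla2a was the most certain gene raised in ILC2 below, and Il5 and Il13 are their classical products. Each is the 250 bases before the gene's start in build GRCm38.p6, taken from RefSeq and written 5′ to 3′ on the gene's strand, with the word AGATAA, or a form of it with T as first or G as last letter, on either strand, in capitals. Ctla2a lies at chr13:60936626-60936875 on the minus strand, Il5 at chr11:53720544-53720793 on the plus strand and Il13 at chr11:53634703-53634952 on the minus strand.
Ctla2a: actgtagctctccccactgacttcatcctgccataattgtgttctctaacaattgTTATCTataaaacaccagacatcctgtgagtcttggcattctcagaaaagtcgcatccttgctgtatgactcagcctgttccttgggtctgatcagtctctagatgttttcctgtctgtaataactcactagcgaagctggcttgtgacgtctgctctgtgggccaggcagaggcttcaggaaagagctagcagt
Il5: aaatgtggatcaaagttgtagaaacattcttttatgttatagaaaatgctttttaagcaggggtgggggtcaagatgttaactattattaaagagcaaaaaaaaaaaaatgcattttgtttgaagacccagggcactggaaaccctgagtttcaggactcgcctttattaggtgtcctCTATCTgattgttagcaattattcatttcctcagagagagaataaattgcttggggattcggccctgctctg
Il13: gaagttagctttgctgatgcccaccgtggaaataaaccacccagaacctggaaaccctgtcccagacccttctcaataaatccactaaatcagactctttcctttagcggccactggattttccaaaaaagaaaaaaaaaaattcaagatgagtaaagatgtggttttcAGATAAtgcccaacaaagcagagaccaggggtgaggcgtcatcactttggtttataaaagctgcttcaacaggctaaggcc
Each stretch holds 1 such word. A word was present in 27.1% of the promoters of all genes (7322 of 27025), in 16.5% of those tested against all other cells (1337 of 8081) and in 18.1% of those called higher in ILC2 (164 of 905), so these letters are common and say nothing of binding.

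The gated cells were checked against markers that the rule did not use. Kit, a receptor found on part of the ILC2, had a UMI in 60.1% of gated cells, against 7.34% of T cells, which were gated by UMIs of at least 2 of Cd3e, Cd3d and Cd3g and numbered 218. Thinned to 1000 UMIs per cell, these shares were 28.3% in ILC2 and 3.67% in T cells. The gated cells held 2 UMIs of Trac and 1 of Trdc, the constant genes of the α and δ chains of the T cell receptor. Trbc2, a β chain constant gene, had a UMI in 70.5% of ILC2 and 82.6% of T cells, and Trbc1 in 46.2% of ILC2 and 46.8% of T cells. Of 11 T cell markers measured outside the rule, Cd8a and Cd8b1 were at 0 UMIs, and the summed level of the list ran from 543 to 790 CPM in KO animals and from 604 to 973 CPM in WT animals. CPM, or counts per 1000000, is a gene's UMIs in an animal's gated cells over all their UMIs. Csf1r (macrophages), Flt3 (dendritic cells), Csf3r (neutrophils), Siglecf (eosinophils), Ncr1 (NK cells), Ms4a1 (B cells) and Mcpt4 (mast cells) were all at 0 UMIs. Over whole lists, UMIs were found for 10 of 12 macrophage or monocyte markers, with a summed level of 931 to 1628 CPM in KO and 928 to 1171 CPM in WT animals. Of the UMIs of that list 651 were of Ccr2, 21 of Plac8, 10 of Apoe and 6 of C1qa. UMIs were found for 2 of 10 mast cell or basophil markers, Kit among them (235 to 554 CPM in KO and 192 to 403 CPM in WT animals), and for 2 of 9 B cell markers (0 to 137 CPM in KO and 35.0 to 98.6 CPM in WT animals). They were found for 5 of 8 neutrophil markers (0 to 34.5 CPM in KO and 0 to 67.3 CPM in WT animals), 3 of 10 dendritic cell markers (0 to 69.0 CPM in KO and 0 to 17.5 CPM in WT animals), 1 of 8 eosinophil markers and 1 of 7 NK cell markers. The part of other cells' RNA in the results was not tested. Ighm had a UMI in 25.4% of gated cells and in 24.3% of all other cells.

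The markers of the rule describe the choice and are given without a test. Il7r, the IL-7 receptor chain, had a UMI in 98.8% of gated cells, Gata3 in 93.6%, Il1rl1 in 93.6%, Klrg1 (an inhibitory receptor) in 58.4%, Rora in 53.2%, Hs3st1 (a heparan sulfate enzyme) in 15.6% and Il17rb in 4.62%. Exactly 3 markers were found in 41 cells, 4 in 73, 5 in 47, 6 in 11 and all 7 in 1.

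**Figure D1:**
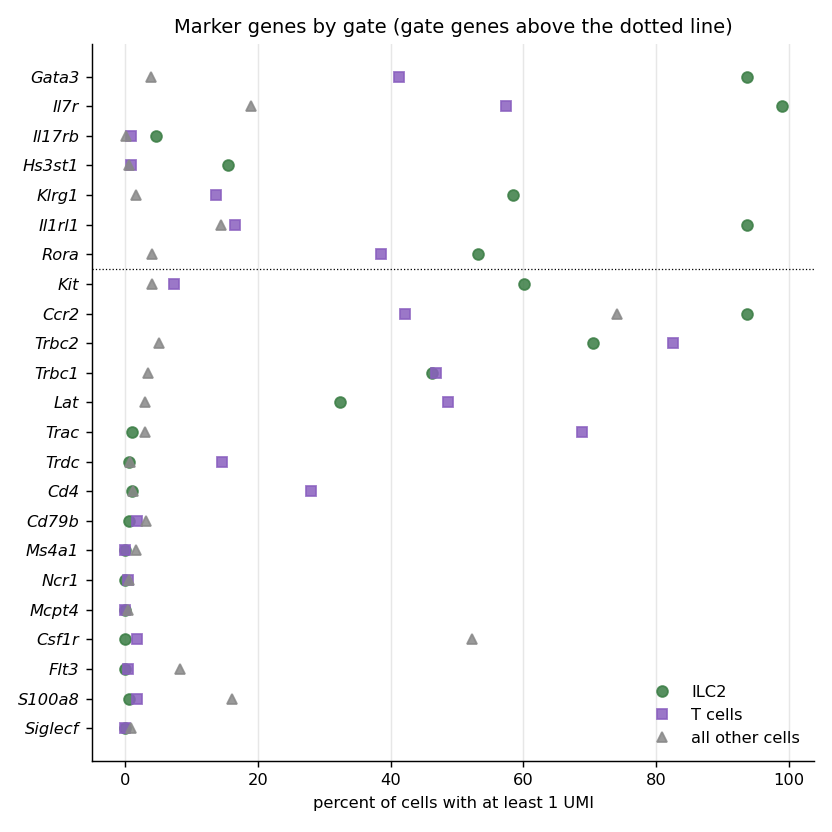
Percent of cells with at least 1 UMI (x axis) for each gene (y axis) in the ILC2 gate, the T gate and all other cells, with the genes of the rule above the dotted line. Below the line Kit stands out in ILC2 at 60.1%, Trbc2 is high in both ILC2 and T cells, and the myeloid markers Csf1r and Flt3 are at 0 in ILC2.

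Just inside the gate, the 41 cells with 3 markers had a median of 2777 UMIs, and 90.2% of them held Ctla2a. Just outside, 62 cells had 2 markers, a median of 7199 UMIs, Ctla2a in 22.6% and Lyz2 in 64.5%. A further 168 cells had 3 or more markers and were removed, 152 of them for Cd3 genes, 20 for Cpa3, 4 for Lyz2 and 1 for Cd79a, with some counted under several. In 45 of these the only fault was a single Cd3 UMI, and 93.3% of those held Ctla2a, 71.1% Kit and 4.44% Trac. The 98 cells removed only for 2 or more Cd3 UMIs held Trac in 32.7%. The T gate in turn holds 49 cells with 3 or more ILC2 markers, of which 63.3% held Trac.

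Depth in the deposited table ran from 1805883 to 5666994 UMIs per animal. A gated cell had a median of 3308 UMIs and 1399 genes, against 3116 UMIs in T cells and 5388 in all other cells. The ILC2 pools ran from 11056 to 51083 UMIs in KO animals and from 57090 to 155831 in WT animals, so 1 UMI was worth 19.6 to 90.4 CPM in a KO pool and 6.42 to 17.5 in a WT pool. KO4 rests on 3 cells. The wells gave 85 and 88 gated cells; 2 barcodes occur in both wells, 0 of them among ILC2. Il20rb itself had 0 UMIs in ILC2 of all 5 KO animals and 1 UMI in those of WT animals, so the targeted gene cannot check the labels in these cells. In all other cells it had 6 UMIs in KO animals and 9 in WT animals.

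ILC2 were a smaller part of the immune cells in KO animals before correction for the 5 single values tested. They made up 1.03%, 3.08%, 2.58%, 0.721% and 1.03% of an animal's cells in KO1 to KO5, against 2.34%, 1.88%, 5.81%, 4.60% and 5.54% in WT1 to WT5. The groups overlapped, since KO2 and KO3 lay above both WT1 and WT2. The means were 1.69 ± 1.06% in KO and 4.03 ± 1.82% in WT animals (SD, n = 5 each; two-sided exact permutation p = 0.0476, Benjamini-Hochberg adjusted 0.238, smallest p possible 0.00794). In well 1 the means were 2.38% in KO and 3.79% in WT animals (exact permutation p = 0.198), and in well 2 they were 0.998% in KO and 4.25% in WT animals (exact permutation p = 0.0159). Leaving out KO1, KO4, KO5, WT3, WT4 or WT5 gave exact permutation p-values between 0.0714 and 0.0794. As a share, the value also moves with the number of other cells: with cells of 5 or more Lyz2 UMIs left out of the total, it was 5.55% in KO and 9.41% in WT animals (exact permutation p = 0.190).

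Among lymphocytes the difference, with both wells summed, was smaller than the spread. ILC2 were 41.6 ± 5.64% of ILC2 and T cells in KO and 45.2 ± 11.9% in WT animals (SD, n = 5 each; exact permutation p = 0.579, adjusted 0.966). The wells differed: in well 1 this share was 50.0% in KO and 43.7% in WT animals (exact permutation p = 0.548). In well 2 it was 25.5% in KO and 47.4% in WT animals (exact permutation p = 0.0873). Differences in depth and quality were also within the spread: medians were 3520 ± 443 UMIs per ILC2 in KO and 3474 ± 457 in WT animals (exact permutation p = 0.881, adjusted 0.984), with 1525 ± 137 genes in KO and 1429 ± 106 in WT animals (exact permutation p = 0.270, adjusted 0.675). Mitochondrial UMIs were 2.25 ± 0.181% in KO and 2.26 ± 0.236% in WT animals (exact permutation p = 0.984, adjusted 0.984).

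**Figure D2:**
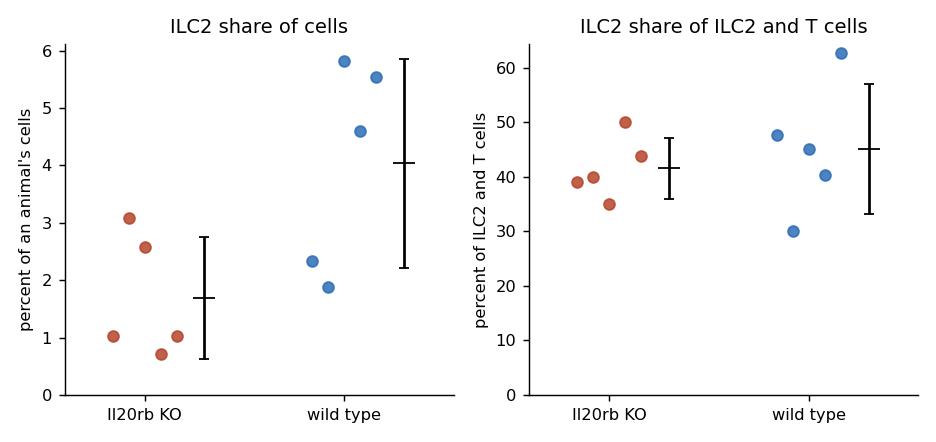
ILC2 as a percent of an animal's cells (left) and of ILC2 and T cells together (right), 1 point per animal with the mean and SD, KO left and WT right. On the left KO animals sit between 0.721% and 3.08% and WT animals between 1.88% and 5.81%; on the right the genotypes overlap.

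The products of ILC2 were patchy from cell to cell. Csf2, the granulocyte-macrophage colony factor, had a UMI in 28.3% of ILC2 and 5.05% of T cells, Il5 in 23.7% of ILC2 and 3.67% of T cells, and Lif, a cytokine of the IL-6 family, in 23.1% of ILC2 and 1.38% of T cells. Thinned to 1000 UMIs, the shares of Il5 were 9.83% of ILC2 and 1.83% of T cells. Areg, an epidermal growth factor receptor ligand, was found in 20.2% of ILC2, Calca, which encodes the neuropeptide CGRP, in 15.6%, Ccl1 in 9.25%, Il13 in 6.36% and Il4 in 3.47%. T cells held more UMIs of Il13 (131 against 47 in ILC2) and Il4 (236 against 8). For Areg they held 188 against 200 in ILC2, for Ccl1 76 against 109 and for Calca 13 against 149. In cells with 5 or more Lyz2 UMIs, which are deeper (median 6227 UMIs), Il5, Il13 and Calca had a UMI in 0 of 3568 cells, Lif in 0.897% and Areg in 3.14%. Whether the Lif and Areg UMIs there came from these cells or from free RNA was not tested. Arg1, arginase 1, was found in 71.7% of ILC2 and 6.88% of T cells, but also in 25.8% of the Lyz2 cells. Il9, Penk and Ptgdr2, the prostaglandin D2 receptor gene, had a UMI in 0 of 173 cells, which allows a share of up to 1.73% of cells with a UMI (3 counts of the total) and does not limit the cells that express the gene.

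Products met only partly in the same cells. Csf2 was found in 46.3% of the 41 ILC2 with Il5 and in 22.7% of those without, and Il13 in 12.2% of those with Il5 and 4.55% of those without. Cells with Il5 were also deeper, at a median of 3761 UMIs against 3175 in those without, and the part of depth was not tested.

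Levels of these products differed widely between animals. Il5 was at 308, 97.9, 0, 0 and 242 CPM in ILC2 of KO1 to KO5, and at 148, 52.6, 109, 78.3 and 106 in WT1 to WT5. The KO values thus lay both above and below all WT values, and the 2 animals at 0 rest on 7 and 3 cells. Calca was concentrated in KO5 and WT2, at 1000 and 1156 CPM, with 0 UMIs in KO2, KO3 and KO4. Csf2 stood at 4898 CPM in KO5 against 0 to 646 in the other KO animals and 17.5 to 981 in WT animals. Its log2 fold of KO over WT was 1.81 ± 1.25 (SE; adjusted p = 0.691).

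ILC2 were set against T cells of the same animals in the 6 animals with at least 10 cells of each kind (KO2 and WT1 to WT5). These cells were chosen by UMIs in the same libraries, so genes expressed together with the markers had to differ; the calls on genes outside both gates describe the gate and are no independent evidence of cell type. Of 1907 genes, 185 (9.7%) were higher in ILC2 and 152 (7.97%) lower (17.7% in either direction). Levels below are means ± SD over these 6 animals, in CPM of a gate's pooled UMIs.

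The highest-ranking gene in ILC2 was Slc7a8, an amino acid transporter, at 344 ± 90.7 in ILC2 and 24.6 ± 18.3 in T cells (log2 fold 3.66 ± 0.34, SE). Serpinb1a, a protease inhibitor, was at 550 ± 73.2 in ILC2 and 98.3 ± 37.8 in T cells (2.48 ± 0.24). Ccr2, a chemokine receptor, was at 991 ± 55.2 in ILC2 and 317 ± 124 in T cells. The transcription cofactor Lmo4, Dmxl2, the phosphatase gene Ptpn13, the cholesterol esterifying enzyme gene Soat1, Lpcat2, which makes platelet activating factor, and the tetraspanin Cd81 were also higher, by log2 folds between 2.36 and 4.86. Trac, the T cell receptor α chain gene, fell to 2.93 ± 4.79 in ILC2, against 534 ± 105 in T cells, and Ccl5, a chemokine of cytotoxic cells, was at 11.1 ± 14.1 in ILC2 and 1802 ± 912 in T cells. Ms4a4b, Nkg7, Klrk1, Cd28, Ctla4, Tnfrsf4 and Cd2 were lower, with log2 folds between -5.54 and -2.36.

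Some receptors and enzymes for lipid mediators and neuropeptides were higher in ILC2 than in T cells. Of 24 genes on this list only 5 had enough counts to be tested, and these 5 were higher; a gene passes the filter through the gate in which it is high, so their count is no support for the list. Against all other cells 21 were tested, and 8 were higher and 6 lower (median log2 fold -0.12, as over all genes). Alox5, 5-lipoxygenase, was at 106 ± 69.6 in ILC2 and 0.739 ± 1.81 in T cells (log2 fold 5.30 ± 0.79, adjusted p = 2.15e-05). Ptafr, the receptor of platelet activating factor, rose by 2.64 ± 0.34, the leukotriene B4 receptor Ltb4r1 by 2.20 ± 0.31, and Calcrl and Ramp1, the parts of the CGRP receptor, by 1.64 ± 0.39 and 1.02 ± 0.28. Among 13 secreted products tested, Lif (4.73 ± 0.63), the protease Furin (2.57 ± 0.27), Calca (4.14 ± 0.85) and Arg1 (2.48 ± 0.63) were higher and Ccl5 and Xcl1 lower. Areg (0.82 ± 0.67, adjusted p = 0.545), Csf2 (1.26 ± 1.07, adjusted p = 0.570) and Il13 (-0.28 ± 1.53, adjusted p = 0.951) did not pass.

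Of 13 transcription factors tested, 2 were higher and 4 lower: Id2, needed by all innate lymphoid cells, rose by 0.91 ± 0.13, and Tcf7 (-2.11 ± 0.34), Runx3 (-1.70 ± 0.27) and Maf (-0.99 ± 0.23) fell. All 6 tested genes of ILC1 and cytotoxic cells, of 16 listed, were lower (median log2 fold -4.44). As above, a gene passes the filter through the gate in which it is high, so this count is no support for the list. Of 24 immediate early genes listed, 18 were tested against T cells, and 8 were higher and 0 lower (Nr4a1 1.86 ± 0.35, Jun 1.88 ± 0.28). Genes that restrain activation were higher in 11 of 22 and lower in 2 (Zfp36l2 0.73 ± 0.13). The limit set by the filter holds for both lists too. Of 13 cytokine receptors tested, 2 were higher and 8 lower, with Il2ra, the IL-2 receptor α chain, up by 1.34 ± 0.24 and Il18r1, an IL-18 receptor chain, at -2.67 ± 0.32. Without the 49 T cells that held 3 or more ILC2 markers, 333 genes were called in place of 337, of which 299 were shared.

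Against all other immune cells, most of which are myeloid, 1206 of 10235 genes (11.8%) were higher in ILC2 and 2171 (21.2%) lower in the same 6 animals (33.0% in either direction). Ctla2a, which encodes a cathepsin inhibitor, led: it was at 3818, 2506, 2096, 3256 and 3484 CPM in ILC2 of KO1 to KO5 and at 3007, 3100, 2310, 2952 and 3067 in WT1 to WT5. Over the 6 animals it was at 2824 ± 332 in ILC2 and 91.2 ± 37.8 in all other cells (log2 fold 4.71 ± 0.13). In T cells it stood at 951 ± 336. Nrgn, a calmodulin-binding protein, was at 484 ± 127 in ILC2 and 10.98 ± 4.35 in other cells (5.11 ± 0.21). Ets1, Il2ra, Inpp4b (an inositol phosphatase), Ptpn13, Thy1 and Rgs2 were higher by log2 folds between 2.28 and 5.03. Ets1 and Thy1 did not pass against T cells (log2 folds -0.05 ± 0.13 and -0.29 ± 0.19).

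The lists of receptors and products were mixed. Cytokine receptors were higher in 10 of 24 tested and lower in 6, and secreted products higher in 10 of 21 and lower in 6. Surface and checkpoint genes were higher in 9 of 23 and lower in 7, and homing genes higher in 11 of 25 and lower in 11. Among those that were higher, Kit rose by 3.82 ± 0.22, the chemokine receptor Ccr8 by 5.24 ± 0.32, Tnfrsf25 (the receptor for TL1A) by 4.68 ± 0.43 and Il9r by 4.22 ± 0.46. Il5 rose by 4.44 ± 0.39, Calca by 6.22 ± 0.40, Lif by 4.72 ± 0.36, Areg by 3.28 ± 0.31 and Csf2 by 4.67 ± 0.78 (adjusted p = 0.00782). Il13 (4.20 ± 1.69, adjusted p = 0.135), Il4 (0.32 ± 0.67, adjusted p = 0.773) and Arg1 (0.82 ± 0.76, adjusted p = 0.508) did not pass. MHC class II genes, which present antigen, were lower in 12 of 13 tested and higher in 0. H2-Ab1 was at 37.0 ± 12.5 in ILC2 and 3527 ± 1458 in other cells. Interferon response genes were lower in 23 of 27 and higher in 1, and lipid handling genes lower in 14 of 22 and higher in 2. Genes of the MHC class II, interferon and lipid lists could pass the filter through the other cells alone, so their counts are no support for the lists. Galectin, S100, annexin and actin genes were lower in 24 of 36 and higher in 3. Immediate early genes, unlike against T cells, were higher in 7 of 24 and lower in 9 (median log2 fold -0.31, beside -0.12 over all genes). Genes that restrain activation were higher in 14 of 25 and lower in 4 (median 0.68).

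**Figure D3:**
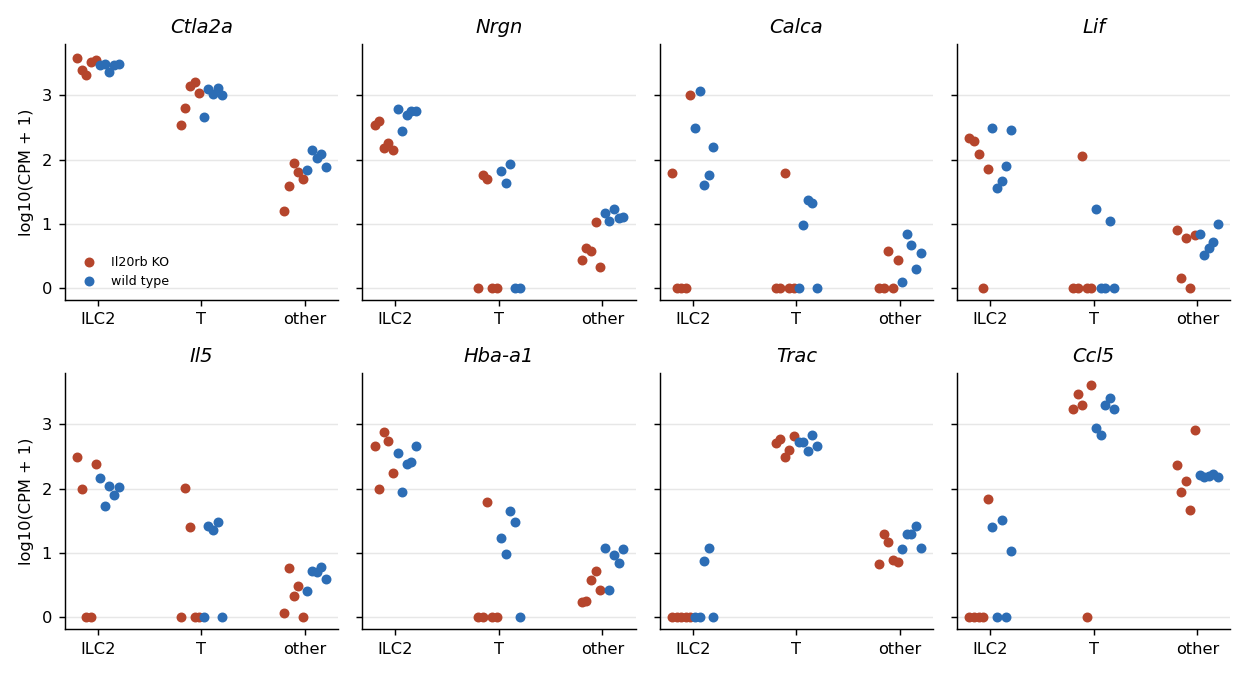
Levels of 8 genes as log10(CPM + 1) per animal in the ILC2 gate, the T gate and all other cells, with KO and WT animals in different colours. Ctla2a and Nrgn are highest in ILC2 of all 10 animals, Calca, Lif and Il5 are at 0 in some pools, and Trac is highest in T cells of all 10 animals.

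Within ILC2, KO and WT animals were compared over all 10 animals, since of the KO animals only KO2 reached the planned minimum of 10 gated cells. No gene passed: 0 of 702 (0.0%) at an adjusted p under 0.05 in edgeR and 0 in DESeq2, with 56 (7.98%) at an unadjusted p under 0.05 in edgeR. The planned fit of KO2 against the 5 WT animals called 2 of 2016 genes, AC102496.1 lower and Klf4 higher; with 1 KO animal its spread comes from WT animals alone, and the calls describe that animal. Groups did not overlap for 15 genes (2.14%).

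Pxdc1, which encodes a protein with a PX domain, ranked first. It was at 308, 333, 486, 362 and 345 CPM in KO1 to KO5, against 185, 175, 154, 168 and 144 in WT1 to WT5 (log2 fold 1.17 ± 0.25, SE; adjusted p = 0.0741). The groups did not overlap, and 63.2% of KO and 34.8% of WT cells held a UMI (28.9% and 8.89% after thinning). AC102496.1, known only by its clone name, was at 277, 39.2, 0, 0 and 173 in KO animals, against 308, 490, 366, 425 and 586 in WT animals (-2.04 ± 0.48, adjusted p = 0.109). Here too every KO animal lay below every WT animal, and KO1 was the closest. ILC2 held 225 of the 1235 UMIs of AC102496.1 (18.2%), and its difference was not shown to be particular to them. Cd69, an activation and tissue residency marker, was at 369, 196, 121, 90.4 and 207 in KO animals, against 653, 385, 379, 503 and 510 in WT animals (-1.19 ± 0.30, adjusted p = 0.109). Without KO1, AC102496.1, Cd69, Crip1 and Pxdc1 passed, and leaving out each other animal gave 0 calls.

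Rpl29, a large-subunit ribosomal protein gene, was at 493, 959, 577, 452 and 862 in KO animals and at 1245, 1541, 1194, 1096 and 1106 in WT animals (-0.79 ± 0.20, adjusted p = 0.109), without overlap. It lies 5.97 Mb from Il20rb on chromosome 9, and copies of ribosomal protein genes can share reads. The parts of position and of shared reads were not tested. S100a11, a calcium-binding protein, was at 2648, 2995, 2734, 3166 and 3622 in KO animals and at 1898, 1471, 2310, 2627 and 1990 in WT animals (0.57 ± 0.16, adjusted p = 0.162), also without overlap. Lgals1, galectin 1, was at 3079, 3347, 5012, 3166 and 5105 in KO animals and at 2699, 1839, 2464, 3265 and 2394 in WT animals (0.67 ± 0.17, adjusted p = 0.109). WT4 lay above KO1 and KO4 for Lgals1. Crip1, a LIM protein, ran from 8867 to 20010 in KO animals and from 6971 to 10290 in WT animals (0.78 ± 0.22, adjusted p = 0.179). With the Cd3 rule replaced by 0 UMIs of Trac and Trdc, a setting chosen after seeing the data that takes 276 cells, AC102496.1, Crip1, Lgals1, Pxdc1 and Rpl29 passed.

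**Figure D4:**
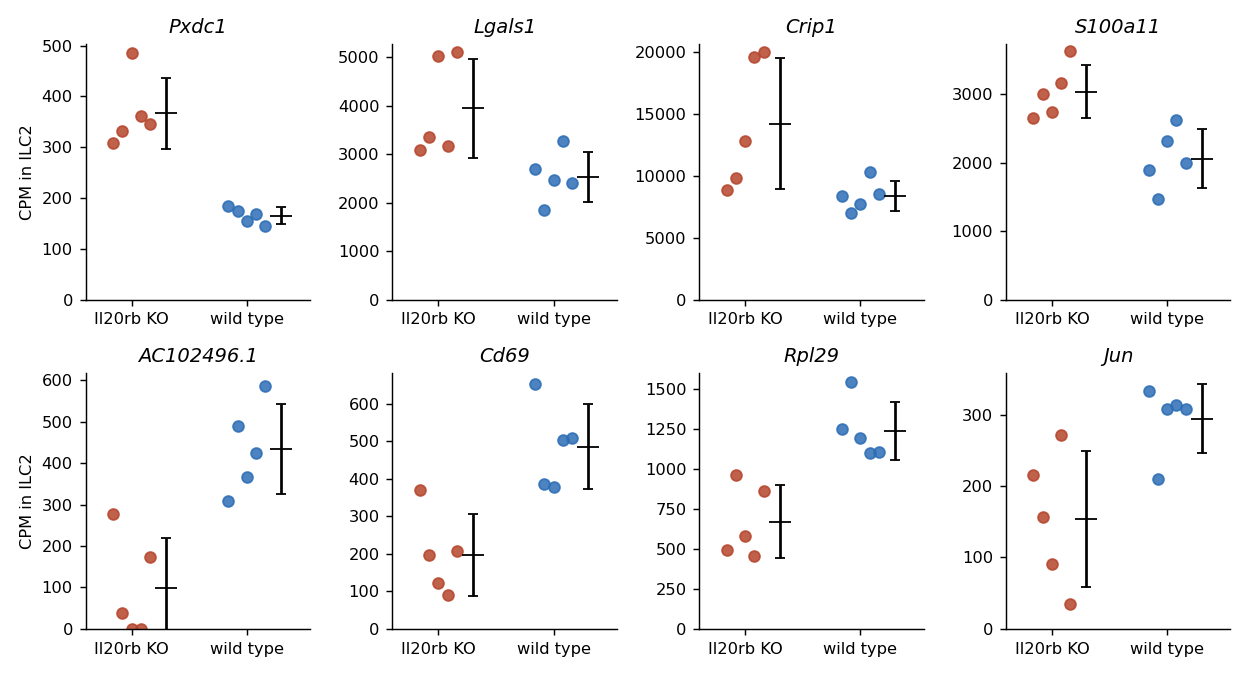
CPM in ILC2 of 8 genes, 1 point per animal with the mean and SD, KO left and WT right (a lower bar that would cross 0 ends there). Pxdc1, S100a11, AC102496.1, Cd69 and Rpl29 do not overlap between genotypes, and none of the 8 passed an adjusted p of 0.05.

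Gene lists are described by counts beside all genes tested, of which 51.6% (362 of 702) were above 0, with a median log2 fold of 0.01. Some lists hold genes picked because an earlier account of these cells named them, so their direction is not independent evidence. Of 36 galectin, Crip1, S100, annexin and actin genes, 30 were tested and 28 were above 0 (median 0.27). MHC class I genes were above 0 in 10 of 10 tested (median 0.18), led by H2-T23 (0.75 ± 0.27, adjusted p = 0.359). Genes that restrain activation were above 0 in 1 of 16 (median -0.52). Among them Zfp36l2, an RNA-decay factor, averaged 717 ± 313 in KO and 1540 ± 584 in WT animals (-1.02 ± 0.32, adjusted p = 0.264), and Tsc22d3, a glucocorticoid-induced gene, 278 ± 90.1 in KO and 537 ± 249 in WT animals (adjusted p = 0.402). Immediate early genes were above 0 in 1 of 12 (median -0.41), with Jun at -1.06 ± 0.33 (adjusted p = 0.202). Large-subunit ribosomal genes were above 0 in 6 of 47 (median -0.21), and mitochondrially encoded genes in 9 of 12 (median 0.06).

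Without KO4, which has the fewest cells, the list counts stayed near those above, with galectin and related genes above 0 in 29 of 32, MHC class I genes in 11 of 11, immediate early genes in 2 of 12, genes that restrain activation in 2 of 16 and large-subunit ribosomal genes in 6 of 47. With KO2 as the only KO animal, which describes that animal, galectin and related genes were above 0 in 24 of 35 (median 0.12), MHC class I genes in 5 of 16 (median -0.13), immediate early genes in 8 of 17 (median -0.0012), genes that restrain activation in 6 of 21 (median -0.21) and large-subunit ribosomal genes in 23 of 47 (median -0.01), beside a median of -0.07 over all genes. Without KO5, MHC class I genes were above 0 in 5 of 11 (median -0.01). With no filter on low counts the median of all genes moved to -0.47, and galectin and related genes were above 0 in 11 of 36 (median -0.15). In DESeq2 the median of all genes was 0.198. Galectin and related genes were at 0.195 there (29 of 36 above 0) and MHC class I genes at 0.100 (12 of 18 above 0). Neither list's median lay above that of all genes. That median covers 11684 genes, those of very low counts among them, against 702 genes in edgeR, so the 2 backgrounds are unlike. Medians in DESeq2 were -0.56 for genes that restrain activation, -0.45 for immediate early and -0.30 for large-subunit ribosomal genes.

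Members of the gate are listed without a call: the log2 fold of KO over WT was 0.13 ± 0.19 for Gata3, 0.04 ± 0.24 for Il1rl1, -0.25 ± 0.17 for Il7r, -0.30 ± 0.33 for Klrg1 and 0.24 ± 0.29 for Rora. Of the products, Furin (-0.12 ± 0.38, adjusted p = 0.938), Arg1 (0.17 ± 0.25, adjusted p = 0.844) and Ltb (-0.99 ± 0.34, adjusted p = 0.284) were tested besides Csf2, and Il5, Il13 and Areg fell under the count filter.

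**Figure D5:**
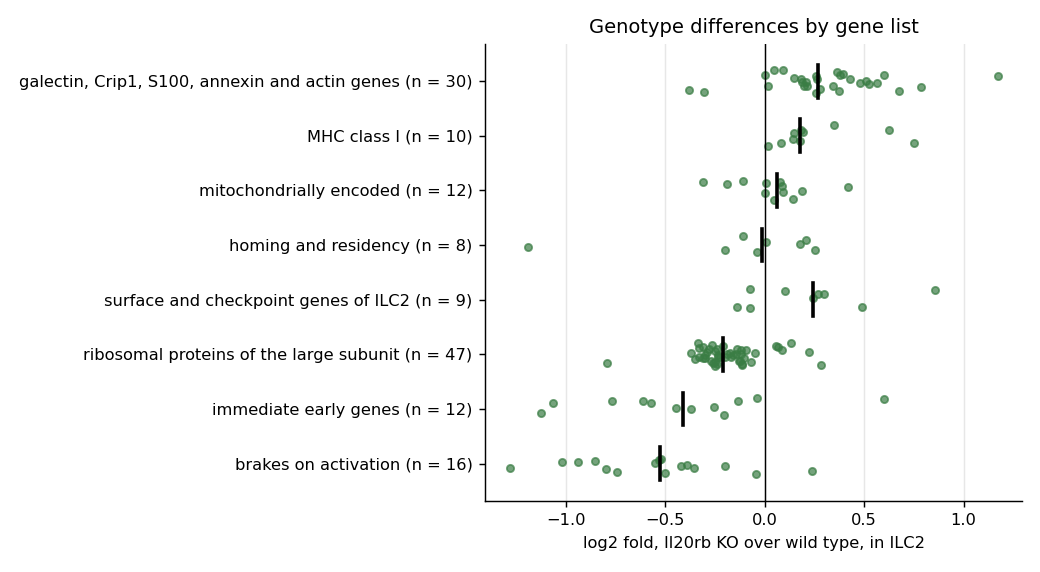
Log2 fold of KO over WT in ILC2 for each tested gene (points) of several lists, with a bar at each list's median and a vertical line at 0. Galectin and related genes lie mostly above 0 (28 of 30), and immediate early genes (1 of 12 above 0) and genes that restrain activation (1 of 16) mostly below.

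Whether the genotype difference in ILC2 was unlike that in other cells was tested by interaction. Against T cells, 0 of 1747 genes (0.0%) passed in edgeR and 0 in DESeq2, with 123 at an unadjusted p under 0.05 in edgeR. The lowest adjusted p was 0.110, for Capg, an actin-capping protein (log2 difference of folds 1.95 ± 0.43). Pxdc1 averaged 367 ± 69.6 in ILC2 of KO and 165 ± 16.3 in those of WT animals, and 8.39 ± 11.8 in T cells of KO and 40.9 ± 25.0 in those of WT animals. It had 29 UMIs in all T cells. In the T cell pools of KO animals 1 UMI was worth 12.35 to 133.8 CPM, so the level there is at the floor.

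Against all other cells, 4 of 10285 genes (0.0389%) passed in edgeR, all of them relatively higher in KO ILC2, and Cxcl1, Hba-a1 and Kcnq5 are described. In DESeq2, and with 4 or more markers required, 0 passed. The other cells include the 168 cells with 3 or more ILC2 markers that the gate removed, 39 from KO and 129 from WT animals. Their part in these results was not tested. Hba-a1, a hemoglobin α gene, averaged 407 ± 272 in ILC2 of KO and 282 ± 139 in those of WT animals, and 2.05 ± 1.48 in other cells of KO and 7.55 ± 3.83 in those of WT animals; its near copy Hba-a2 may share reads with it. Cxcl1, a neutrophil attractant, rests on 8 UMIs in ILC2, 7 of them in KO2 and 1 in KO3, and Kcnq5, a potassium channel gene, on 10 UMIs in KO and 4 in WT animals. With KO2 as the only KO animal, where WT animals alone give the spread, 6 genes passed, 1 of them shared with the 4. Leaving out KO1 gave 2 calls, and leaving out KO2 or KO3 gave 6 each. Of 47 large-subunit ribosomal genes, 1 had an unadjusted p under 0.05 in this interaction in edgeR, and that was Rpl34. The lower Rpl29 in KO ILC2 was thus not shown to be particular to ILC2. Of the same 47 genes, 42 were below 0 in this interaction (median -0.25, beside -0.05 over all genes). In the interaction with T cells, 45 of the 47 were below 0 (median -0.36, beside -0.03 over all genes). There 20 had an unadjusted p under 0.05 in edgeR and 0 passed.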

How the data were processed

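The authors deposited 1 table of raw UMI counts per gene and cell, with well, genotype and hashtag written in each cell's name, per the file headers. Cell Ranger 6.0.1, R 4.0.5 and build mm10 are named, per the submitters' processing notes; how hashtags were called, the annotation release and the strand setting were not given in the sources used here. Each cell held at least 1000 UMIs, and 0 cells were removed here; no doublet caller was run, and 0 columns were left unused. Of 32285 gene identifiers, 32158 matched a symbol in the reference table of gene names.

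Gated cells were summed per animal and tested in R 4.3.3 with edgeR 4.0.16 (filterByExpr, TMM scaling, robust quasi-likelihood test, Benjamini-Hochberg over all genes tested, called under 0.05), with DESeq2 1.42.0 as an alternative. Fits within animals carried the animal as a term. Levels are plain CPM, UMIs per 1000000 of a pool. The SE of a log2 fold is its size over the square root of the F statistic, not a fitted error. For some genes, Gata3 between genotypes among them, it is smaller than the p-value of the fit implies. Single values per animal were compared by two-sided exact permutation over 252 splits; for depth and quality all 10 animals were used in place of those with at least 10 cells. Nothing in the labels goes beyond separate hashtags for the animals, so p-values measure the spread between animals of this 1 experiment; intervals and limits of counts cover counting error only.

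Departures from the plan were 2. Only KO2 among KO animals had 10 gated cells, so the comparisons of genotypes use all 10 animals, chosen from cell numbers, with the planned fit beside them. For fits against all other cells, counts with no changed gene were simulated: TMM shifted the median of 9751 genes by -0.29 (10.5% at p under 0.05) and RLE, the scaling of DESeq2, by 0.02 (4.71%), so RLE was used. In the data 33.0% of genes were called between ILC2 and all other cells, so a simulation without changed genes cannot show which scaling is right there. It was not run for the fits that kept TMM.

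Named genes are all those called where 30 or fewer were called, otherwise the 15 of lowest p in each direction; where fewer than 5 were called in a direction, the 5 of lowest p; and examples from 22 gene lists, the gate genes, Il5, Il13, Il4, Areg, Il20rb and genes an earlier account named. The members and lists were chosen with earlier results of these data known. The result of 1 called gene is not reported here. Sequences are RefSeq promoters of GRCm38.p6.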

Additional observations from a re-analysis of the deposited data

Results flagged for a closer look

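In groups of 5 animals, 34 groups were looked at for an animal far from the rest, and chance flags about 1 in 20. WT2 stood apart among WT animals at a median of 1615 genes per ILC2. WT2 also stood apart at 210 CPM of Jun in ILC2, below the other WT animals.

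The genotype difference in ILC2 was unlike that in all other cells for Hba-a1, Cxcl1 and Kcnq5 by the interaction test in edgeR. The fitted log2 difference of folds was 2.38 for Hba-a1 (adjusted p = 0.0021), 10.95 for Cxcl1 (adjusted p = 0.000196) and 5.13 for Kcnq5 (adjusted p = 0.0332). The values of Cxcl1 and Kcnq5 rest on 8 and 14 UMIs in ILC2; that of Cxcl1, with 0 UMIs in ILC2 of WT animals, depends on the prior count and is no bound. All other cells include 168 cells with 3 or more ILC2 markers that the gate removed, 39 from KO and 129 from WT animals. The parts of these cells, of depth and of UMIs from other cells in these results were not tested.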

How the results depend on the processing

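The ILC2 share of cells (KO minus WT, in percentage points) was lower in KO animals under every setting run, but lost p under 0.05 with 2 or more markers (-2.50), a strict gate (-0.398), well 1 alone (-1.41) and a total without Lyz2 cells (-3.86); leaving out 1 animal gave -2.88 to -1.90. The share among ILC2 and T cells turned to 1.42 with 2 or more markers and 6.33 in well 1, and ran from -7.43 to 0.758 with 1 animal left out. The same difference was -21.9 in well 2 and -21.3 with the gate applied after thinning to 1000 UMIs. With 1 animal left out, the difference in UMIs per ILC2 ran from -109.4 to 222.5 and in mitochondrial percent from -0.0931 to 0.0726. Genes called between genotypes numbered 0 as reported, 18 without a count filter, 1 in the strict gate, 5 with the Cd3 rule replaced, 2 in the planned fit and 0 to 4 with 1 animal left out. The interaction with T cells called 0 genes as reported, 18 without a filter, 3 in the strict gate and 1 without T cells of 3 or more ILC2 markers. The interaction with other cells called 4 genes as reported, 0 in DESeq2, 0 with 4 or more markers, 2 in the strict gate, 8 with the Cd3 rule replaced and 2 to 6 with 1 animal left out; TMM scaling called 5, of which 2 were shared. Against T cells DESeq2 called 193 genes in place of 337. TMM in place of RLE shifted the median gene by -0.148 against all other cells and by -0.324 in the interaction. The interaction of Ifi213 reversed to 0.0288 with 10 or more cells per animal. The causes were not tested. The 12 named genotype genes were not called as reported; of 259 alternatives 16 called the gene, 243 did not, and 0 reversed its direction. A gene that is not called cannot lose its call, so these counts do not show that the results are stable. Log2 folds ran from 0.747 to 1.37 for Pxdc1, from -1.59 to -0.115 for Cd69 and from 0.203 to 1.63 for Crip1. No paired analysis was possible because the labels pair no animals: the numbers 1 to 5 only follow the order of the hashtags. The strict gate within animals and a minimum of 20 cells could not be fitted. KO3, KO4 and KO5 gave 7, 3 and 7 ILC2, so 1 UMI in their pools is worth 30.4, 90.4 and 34.5 CPM.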

Other observations

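Genes not usually listed for ILC2 were found in many gated cells, and are given as values. Hba-a1 had a UMI in 44.5% of ILC2, 5.5% of T cells and 0.196% of cells with 5 or more Lyz2 UMIs; the 173 gated cells held 199 of its 372 UMIs (53.5%). After thinning to 1000 UMIs these shares were 22.5% of ILC2 and 2.29% of T cells. Its near copy Hba-a2 had 4 UMIs in ILC2, and Hbb-bs, Hbb-bt and Alas2, other genes of red cells, had 0 UMIs there. Hba-a1 was at 462, 97.9, 759, 543 and 173 CPM in ILC2 of KO1 to KO5 and at 357, 87.6, 244, 257 and 462 in WT1 to WT5.

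Olfr1259, an olfactory receptor gene, had a UMI in 32.9% of ILC2 and 2.29% of T cells, and Pcsk1, a prohormone convertase, in 26.6% of ILC2 and 4.59% of T cells. Trdv4, a δ chain variable gene, had a UMI in 37.6% of ILC2 and 11.01% of T cells, while Trdc had 1 UMI in all ILC2. None of the 3568 Lyz2 cells held a UMI of Olfr1259 or Trdv4, and 0.028% held one of Pcsk1. Gm42031, chosen for mention after its values were seen, was at 0, 0, 0, 0 and 34.5 CPM in ILC2 of KO animals and at 86.3, 175, 193, 145 and 567 in those of WT animals. Unlike the genes above, it was mostly found in other cells: ILC2 held 120 of its 2305 UMIs (5.21%). Its difference between genotypes was not shown to be particular to ILC2.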
